A study of Mus musculus with 4 samples.

Results

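A set of 10 genes of growth factor signalling, coding for AP-1 proteins, Myc and immediate early factors, was followed in ribosome-protected signal from primary mouse myoblasts. They were taken by symbol, as the Fos family (Fos, Fosb, Fosl1 and Fosl2), the Jun family (Jun, Junb and Jund), the immediate early genes Egr1 and Ier2, and Myc. They were 10 of the 55573 genes in the table and 10 of the 11363 that reached a mean of 1 RPKM over the libraries. RPKM is the number of reads scaled by gene length and library size. The genes held between 98 reads (Fosl1) and 2130 reads (Egr1) over all libraries together.

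The WT group had 2 libraries and the KO group had 2. All were from primary myoblast cultures of 3-week-old mice, kept with 10 µg/ml FGF, taken on day 2 of proliferation and treated with cycloheximide at 100 µg/ml. As the study describes its mice, KO is Pax7 CreERT2/+; eIF5A f/f, with deletion induced by tamoxifen through a Cre driven from the satellite cell gene Pax7, and WT are littermates. The WT mice of other experiments are given as Pax7 CreERT2/+ or as Pax7 +/+; eIF5A f/f, so whether the WT cells here carried the Cre is not known. Cells that do not express Pax7 would keep the gene. Eif5a, the targeted gene, had 34.9 and 65.2 RPKM in the WT libraries and 60.3 and 59.4 RPKM in those labelled KO, a log2 fold change of 0.32 (SE 0.48, adjusted p = 0.839). Its signal was thus not lower under the KO label, so WT and KO name the labels only, and KO library 1 means the library labelled KO with that number. The table gives 1 value per gene, so this value does not separate deleted from retained exons.

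Fos and Jun proteins bind DNA as pairs held by a leucine zipper, and together they form the factor AP-1. Jun proteins can pair with one another or with Fos proteins, whereas Fos proteins need a Jun partner. Most of these genes are transcribed within minutes of a growth factor reaching the cell, through the MAP kinase cascade and the serum response factor, and their mRNAs are short-lived. Myc pairs with Max and drives genes of growth and ribosome production. In muscle precursor cells, AP-1 and Myc are known for their activity in proliferation and for falling as cells differentiate. eIF5A, the hypusine-carrying translation factor, is known to help ribosomes through runs of proline codons.

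Of the 10 genes, 6 coded for at least 1 run of 3 or more prolines, compared with 25.7% of the tested protein-coding genes. The runs of 5 of these genes are shown because they are the codons at which eIF5A is known to act. Sequences are from the mouse GRCm38 transcripts of GENCODE M21, on the coding strand 5′ to 3′, with the proline codons in capitals between 2 flanking codons on each side, all within a single coding exon.
Fosb, residues 257 to 263, chr7:19305063-19305095, minus strand: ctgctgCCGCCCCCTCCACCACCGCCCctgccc
Jund, residues 213 to 216, chr8:70699688-70699711, plus strand: cccttcCCGCCGCCCCCGggcgcg
Jund, residues 221 to 225, chr8:70699712-70699738, plus strand: ctggggCCGCCGCCACCTCCGcatcca
Junb, residues 175 to 177, chr8:84977893-84977913, minus strand: ccggagCCGCCTCCCgtctac
Fosl1, residues 88 to 90, chr19:5450310-5450330, plus strand: ctagggCCACCTCCGggggtg
Ier2, residues 112 to 114, chr8:84662404-84662424, minus strand: tgtgacCCGCCCCCCgctaga
Ier2, residues 191 to 193, chr8:84662167-84662187, minus strand: gccgtgCCCCCGCCGacgccc

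Fosb had the longest run, and Jund and Ier2 each had a pair of separate runs. The leucine zipper was the other shared feature of the coding sequences. All 7 Fos and Jun family genes had 5 leucines spaced 7 residues apart, a pattern present in 2.09% of the tested protein-coding genes, and Myc had 4. The stretches of Fos and Jun, the classical partners, are shown with the spaced leucine codons in capitals. The Fos stretch crosses an intron, and its coordinates include that intron.
Fos, residues 165 to 193, chr12:85475691-85475894, plus strand: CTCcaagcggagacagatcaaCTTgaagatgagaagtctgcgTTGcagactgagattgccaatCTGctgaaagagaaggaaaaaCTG
Jun, residues 283 to 311, chr4:95050339-95050425, minus strand: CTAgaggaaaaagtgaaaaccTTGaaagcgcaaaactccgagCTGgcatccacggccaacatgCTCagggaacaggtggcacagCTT

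In the 3′ UTRs, the pentamer ATTTA of AU-rich elements was present in 9 of the 10 genes (all but Ier2) and in 66.4% of tested protein-coding genes. Such elements are known for marking mRNAs for rapid decay. The longer nonamer, TTATTTA followed by A or T at both of the last positions and searched on the transcript strand, was present in 3 of the 10 and in 15.8% of tested protein-coding genes. The nonamers are shown in capitals, with 8 bases of 3′ UTR on each side.
Fos, chr12:85477105-85477129, plus strand: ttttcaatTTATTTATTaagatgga
Fosl2, chr5:32156873-32156897, plus strand: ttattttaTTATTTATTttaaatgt
Myc, chr15:61990274-61990298, plus strand: aattttttTTATTTAAAgacatttt

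Most of these genes were among the strongly read genes of the cultures, and no difference between the groups passed the test. None of the 10 was called at an adjusted p under 0.05, where 0.106% of all tested genes were, and none had an unadjusted p under 0.05, where 7.32% did. Their log2 fold changes, given throughout as KO minus WT on log2(RPKM + 1), lay between -1.56 (Jund) and 0.41 (Fosb). The median was -0.18, beside 0.00026 over all tested genes. The sign changed with the processing: the median was 0.44 after scaling every library to the same sum, 0.14 with quantile normalization and 0.25 with the GC trend removed. The same-sum scaling put the median of all genes at 0.50, above that of the 10, and gave Fosb 1.01, Fos 0.90, Junb 0.69 and Myc 0.66.

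By level per length, the genes fell into steps. The length includes untranslated bases, being 9680 bases for Fosl2 with 981 coding, and 1668 for Jund with 1026 coding. The steps are thus not an order of signal per coding base. Fos, Egr1, Junb, Jun and Ier2 had mean WT levels of 215.1, 214.5, 210.9, 193.9 and 181.7 RPKM, and ranked between 44 and 57 among the 9877 tested protein-coding genes. Each neighbour in this order overlapped the next in the WT libraries. Myc (69.8 RPKM) and Jund (65.1 RPKM) came next and overlapped each other. Fosb (32.3 RPKM) and Fosl2 (31.3 RPKM) overlapped below them, and Fosl1 was lowest at 21.9 RPKM. In the libraries labelled KO, Fos did not overlap Egr1, Egr1 lay wholly below Junb, Junb did not overlap Jun, Myc did not overlap Jund and Fosb did not overlap Fosl2, whereas Jund overlapped Fosb and Fosl2 overlapped Fosl1. As whole cultures were measured, fewer cells of a type and less RNA per cell cannot be told apart.

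**Figure D1:**
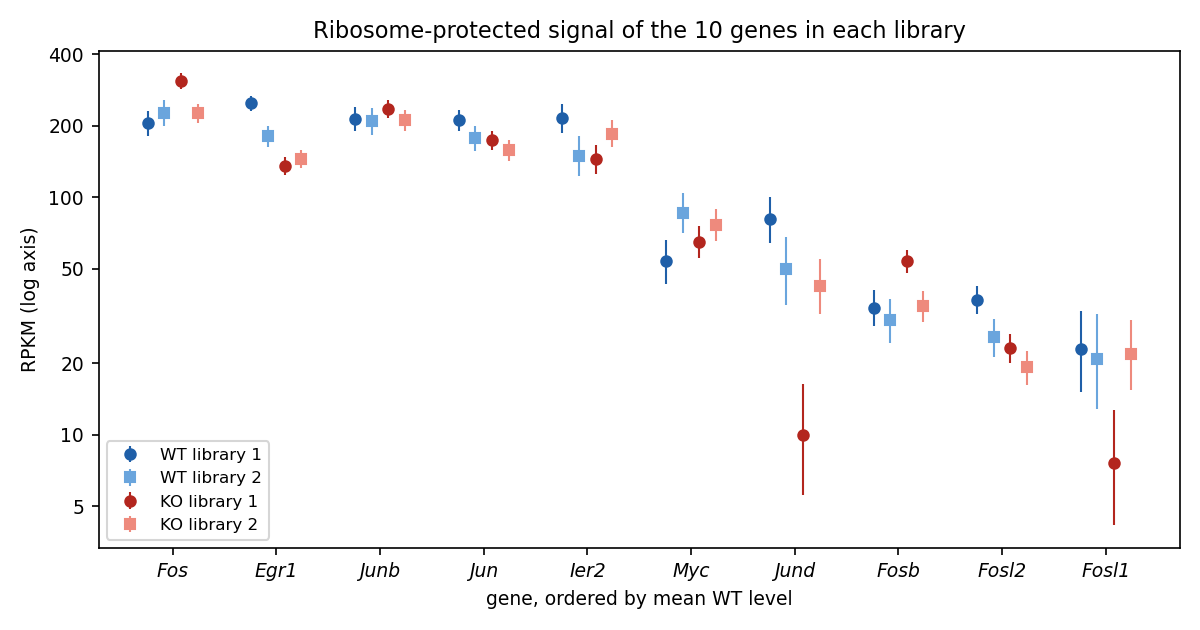
RPKM (log axis) of each of the 10 genes in WT library 1, WT library 2, KO library 1 and KO library 2, ordered by mean WT level. Bars are 95% exact Poisson intervals of the recovered reads, which cover counting error only. Jund and Fosl1 in KO library 1 stand far below the other 3 libraries.

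Among the Fos family, which supply the partner that cannot pair with itself, Fos was the most abundant. Fos had 204.5 and 225.6 RPKM in the WT libraries and 307.5 and 225.3 RPKM in those labelled KO. KO library 1 was highest and KO library 2 was level with WT library 2, so the groups overlapped. The log2 fold change was 0.29 (SE 0.50, adjusted p = 0.859), or 0.07 without KO library 1. Fosb, which has a short splice form lacking its transactivation region, had 34.3 and 30.3 RPKM against 53.7 and 34.7 RPKM. Both libraries labelled KO lay above both WT libraries, KO library 2 by a small margin. The log2 fold change was 0.41 (SE 0.44, adjusted p = 0.763), and without KO library 1 it was 0.10.

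Fosl1 (FRA-1) and Fosl2 (FRA-2) code for Fos-related proteins without a strong transactivation region. Fosl1 had 22.8 and 20.9 RPKM in the WT libraries and 7.59 and 21.9 RPKM in those labelled KO. KO library 2 lay between the WT libraries, and the lower mean came from KO library 1 with 14 reads. The log2 fold change was -0.70 (SE 0.56, adjusted p = 0.720), and without KO library 1 it was 0.0051. Fosl2 had 37.0 and 25.7 RPKM against 23.1 and 19.2 RPKM. Both libraries labelled KO lay below both WT libraries, although KO library 1 was close to WT library 2. Its log2 fold change was -0.53 (SE 0.42, adjusted p = 0.720), 0.06 at the same sum and -0.27 without WT library 1.

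In the Jun family, Jund stood apart from Jun and Junb. Jun, the main transactivating partner, had 210.7 and 177.0 RPKM in the WT libraries and 173.2 and 157.2 RPKM in those labelled KO. The groups did not overlap, but KO library 1 was only just below WT library 2. Jun had a log2 fold change of -0.23 (SE 0.47, adjusted p = 0.886), and a positive one at the same sum (0.39), with quantile normalization (0.13) and with the GC trend removed (0.23). Without WT library 1 it was -0.10. Junb, a Jun protein that often restrains Jun, had 213.4 and 208.5 RPKM against 234.8 and 210.9 RPKM. KO library 2 lay between the WT libraries, and the log2 fold change was 0.08 (SE 0.48, adjusted p = 0.968), -0.04 at the same sum over protein-coding genes and 0.000051 without KO library 1. Larger values came from scaling to the same sum (0.69), quantile normalization (0.55) and removal of the GC trend (0.59).

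Jund had the lowest log2 fold change of the 10. It codes for the Jun protein usually present in resting cells. Its values were 80.6 and 49.6 RPKM in the WT libraries and 9.91 and 42.3 RPKM in those labelled KO, from 81, 39, 15 and 57 reads. Both libraries labelled KO were below both WT libraries, KO library 1 strongly and KO library 2 slightly. The counting intervals of KO library 1 (5.55 to 16.4 RPKM) and KO library 2 (32.0 to 54.8 RPKM) did not meet, so the libraries of this group differed beyond counting error. The log2 fold change was -1.56 (SE 0.73, 95% interval -3.36 to 0.24, unadjusted p = 0.0773, adjusted p = 0.676). It was -0.57 without KO library 1 and -2.56 without KO library 2. With limma-voom on the recovered reads it was -1.64 (unadjusted p = 0.00649, adjusted p = 0.301).

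Egr1 codes for a zinc finger factor and Ier2 for a small nuclear protein. Egr1 had 248.2 and 180.8 RPKM in the WT libraries and 135.5 and 145.2 RPKM in those labelled KO. The groups did not overlap, and both libraries labelled KO were closer to each other than the WT libraries were. Egr1 had a log2 fold change of -0.59 (SE 0.48, adjusted p = 0.722), 0.02 at the same sum and -0.36 without WT library 1. Ier2 had 214.4 and 149.0 RPKM against 144.7 and 185.2 RPKM. High and low values occurred in both groups, and its log2 fold change was -0.13 (SE 0.50, adjusted p = 0.945), with a positive sign under the same alternatives as Jun and without WT library 1 or KO library 1.

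Myc, the bHLH zipper factor, had 53.7 and 85.9 RPKM in the WT libraries and 64.9 and 76.6 RPKM in those labelled KO. Both KO values lay between the WT values. Myc had a log2 fold change of 0.05 (SE 0.47, 95% interval -1.10 to 1.20, adjusted p = 0.977), or -0.06 at the same sum over protein-coding genes, and a difference inside that interval could not be told from none with these libraries. Leaving out WT library 1 gave -0.28, and leaving out WT library 2 gave 0.39. In the annotation, the longest coding sequence of Myc starts at a CTG codon and has 454 residues.

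Across the 10 genes, 4 (Fosl2, Jun, Jund and Egr1) had both libraries labelled KO below both WT libraries, beside 20.3% of all tested genes, and 1 (Fosb) had both above, beside 20.1%. The other 5 overlapped. With 2 libraries against 2, the exact permutation test (two-sided) of any single gene has 0.333 as its smallest possible p. The labels do not say whether libraries came from separate cultures or animals, so p-values measure only the spread between these libraries.

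**Figure D2:**
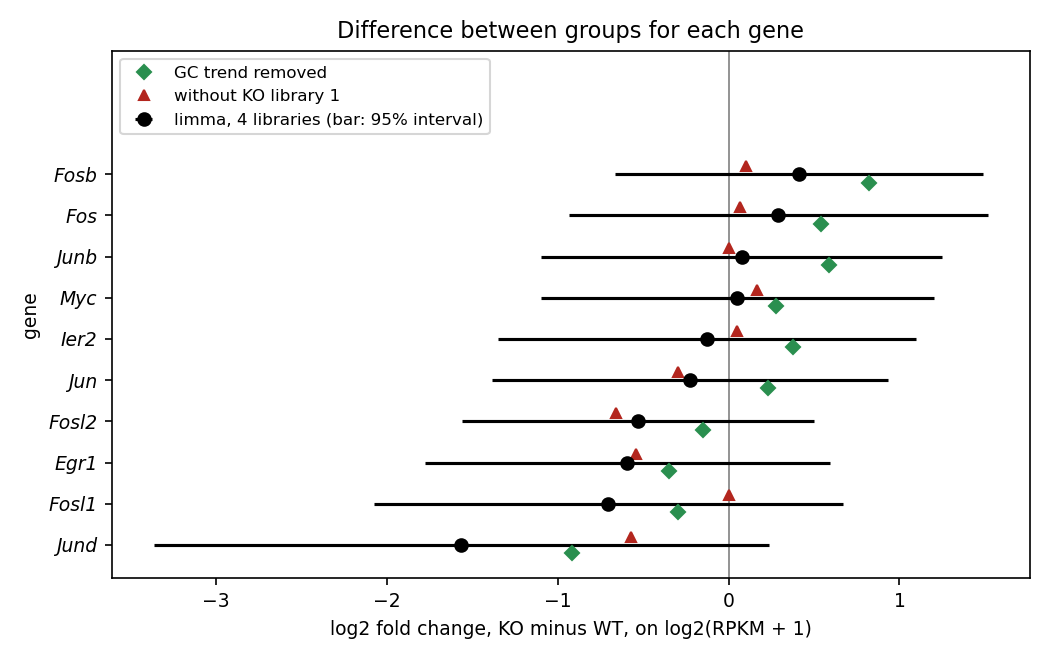
Log2 fold change (KO minus WT on log2(RPKM + 1)) of each gene with its 95% interval from limma, and the value with the GC trend removed (diamonds) or without KO library 1 (triangles). Every interval includes 0. Without KO library 1, the values of Fos, Fosb, Junb, Fosl1, Jund, Egr1 and Ier2 lie nearer 0. Those of Fosl2, Jun and Myc lie farther from it.

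A scaling factor common to a whole library cancels in the shares within a family, whereas quantile normalization, which has no such factor, can change them. Gene length does not cancel. It was 2352 bases for Fos and 9680 for Fosl2, whose coding sequences have 1143 and 981 bases. The shares are thus of RPKM, and not of signal per coding base. Fos made up 68.5% and 74.6% of the summed RPKM of the Fos family in the WT libraries and 78.5% and 74.8% in those labelled KO. Fosl2 made up 12.4% and 8.48% against 5.90% and 6.37%. The Fos and Fosl2 shares thus did not overlap between groups, Fos being higher and Fosl2 lower in those labelled KO, though KO library 2 exceeded WT library 2 in the Fos share by little. In the Jun family, Junb made up 42.3% and 47.9% against 56.2% and 51.4%, and Jund 16.0% and 11.4% against 2.37% and 10.3%. Jun made up 41.7% and 40.7% against 41.4% and 38.3%, with overlap. The ratio of summed Fos family to summed Jun family RPKM was 0.59 and 0.69 in the WT libraries and 0.94 and 0.73 in those labelled KO. Each of these non-overlapping differences had an exact permutation p of 0.333, the smallest possible.

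**Figure D3:**
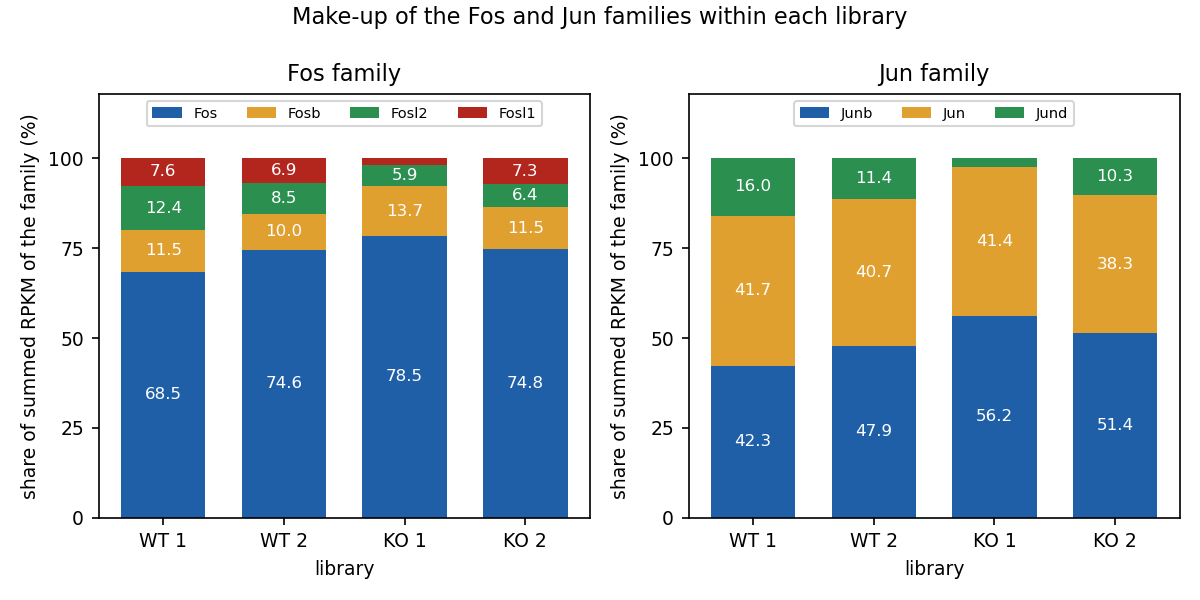
Share of the summed RPKM of the Fos family (left) and Jun family (right) taken by each gene in each library, as stacked bars that add to 100%. Jund takes 2.37% of the Jun family in KO library 1 and 10.3% to 16.0% in the other libraries.

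The 10 genes took 0.892% (95% Wilson interval 0.857 to 0.928) and 0.738% (0.703 to 0.775) of protein-coding reads in the WT libraries. In the libraries labelled KO they took 0.672% (0.649 to 0.696) and 0.666% (0.641 to 0.692). The KO shares lay below the WT shares, which also differed from each other beyond counting error. Protein-coding genes held 41.5% and 33.9% of all reads in the WT libraries and 65.4% and 59.2% in those labelled KO. The part of that shift in the values of the 10 genes was not tested.

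The coding sequences of the 10 genes were rich in G and C, from 58.1% (Myc) to 70.6% (Jund), with a median of 62.0% beside 53.1% over the tested protein-coding genes. Over all coding genes, log2 fold changes were lower at higher GC content. Among the 2002 other coding genes in that GC range, the median was -0.35 and the quartiles were -0.80 and 0.096. With the GC trend removed, 6 of the 10 genes were positive and 4 negative, Fosb had the highest value (0.82) and Jund the lowest (-0.92), and none was called. The part of GC content in these values was not tested further.

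**Figure D4:**
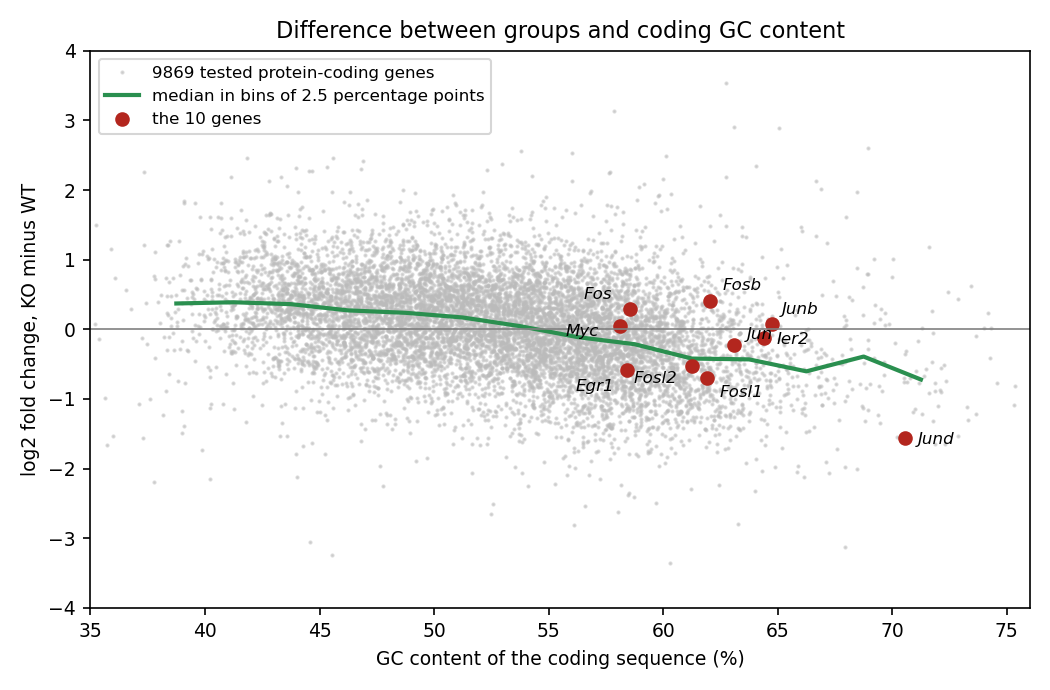
Log2 fold change (KO minus WT) against GC content of the coding sequence for the 9869 tested protein-coding genes (grey), their median in bins of 2.5 percentage points with at least 20 genes (green line), and the 10 genes (red). The line declines with GC content, and the 10 genes lie in the GC-rich part on both sides of it.

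The log2 fold changes were also set beside the proline runs and AU-rich nonamers, with no test. The 6 genes with a proline run, those printed and Egr1, had log2 fold changes from -1.56 to 0.41 with a median of -0.36. Fosb, with its 7 consecutive prolines, and Jund, with runs of 4 and 5, stood at the opposite ends. The 4 genes without a run had values from -0.53 to 0.29 with a median of -0.09. Without KO library 1, the 6 had Jund -0.57, Egr1 -0.54, Junb 0.000051, Fosl1 0.0051, Ier2 0.05 and Fosb 0.10. The 4 then had Fosl2 -0.66, Jun -0.29, Fos 0.07 and Myc 0.17, so the order of the medians turned. Of the 3 genes with the nonamer, Fos and Myc had positive values and Fosl2 a negative one.

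Some of the genes share their locus with another gene, and whether counting used strand is not stated. Fosl1 overlaps the antisense gene Ccdc85b, which had 67, 19, 17 and 24 reads in WT library 1, WT library 2, KO library 1 and KO library 2. Junb overlaps Prdx2 with 15, 26, 65 and 55 reads, and Jun overlaps Junos with 4, 3, 3 and 2. Gm11175 lies antisense over 919 bases of Jund and was listed at 0 reads in every library.

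The other genes of the pathways were described by lists, and none of their genes passed at an adjusted p under 0.05. Of the 14 other bZIP genes of the AP-1 superfamily, 8 were tested, 6 negative and 2 positive, with a median of -0.40 (0.06 at the same sum and -0.64 without KO library 2) and none at an unadjusted p under 0.05. Jdp2, a repressor that pairs with Jun proteins, had a value of -0.99 (-0.36 without KO library 1), and Atf2 (0.19, or 0.02 without WT library 2) and Maff (0.07, or -0.44 without KO library 2) were highest. Of 42 other immediate early genes 41 were tested, 22 negative and 19 positive, with a median of -0.03, none at an unadjusted p under 0.05. That median was positive under 5 alternatives: 0.56 at the same sum, 0.11 with quantile normalization, 0.25 with the GC trend removed, 0.15 without WT library 2 and 0.09 without KO library 1. Sgk1 (1.04) and Ptgs2 (0.95) were highest, and Cebpb (-1.30) and Zfp36l2 (-1.14) lowest. Each rested in part on 1 library, being 0.20 for Sgk1 without WT library 1, and 0.34 for Ptgs2, -0.41 for Cebpb and -0.37 for Zfp36l2 without KO library 1.

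Upstream signalling ran from FGF receptors through the Ras and MAP kinases to the serum response factor. Of its 29 genes 27 were tested, 18 negative and 9 positive, with a median of -0.21 (0.15 at the same sum, -0.43 with a minimum mean of 5 RPKM, -0.08 without KO library 1 and -0.63 without KO library 2). At an unadjusted p under 0.05, 2 of the 27 were lower and none higher, a share near the 7.32% of all tested genes. Fgfr4, a receptor of FGF in myoblasts, had 30.9 and 9.59 RPKM in the WT libraries and 1.87 and 3.15 RPKM in those labelled KO. Its log2 fold change was -2.41 (SE 0.60, adjusted p = 0.604), -1.62 without WT library 1 and -3.21 without WT library 2. Hras, a Ras GTPase, had 5.78 and 10.8 RPKM against 3.54 and 1.66 RPKM, a log2 fold change of -1.36 (SE 0.48, adjusted p = 0.672). Nras (0.76, or 0.20 without WT library 1) and Mapk14 (0.70) were highest.

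Of 16 known AP-1 target genes all were tested, 14 positive and 2 negative, with a median of 0.78, and 1 was higher at an unadjusted p under 0.05 (7.32% of all tested genes in either direction). In 6 of the 16 both libraries labelled KO lay above both WT libraries, beside 20.1% of all tested genes. Mmp10, a matrix protease, was the one past that threshold, with 0.963 and 1.23 RPKM in the WT libraries, 6.40 and 2.88 RPKM in those labelled KO and 16 reads in all (log2 fold change 1.36, SE 0.50, adjusted p = 0.672, or 0.89 without KO library 1). Mmp3 (1.23) and Mmp9 (1.05) followed, and Mt2, a metallothionein, was lowest (-1.58). Without WT library 1, Mmp3 was at 0.55 and Mt2 at -0.49, and without KO library 1 Mmp9 was at -0.27. Summed RPKM of the list was 1957 in WT library 1 against 4206 in WT library 2 and 4625 and 3967 in those labelled KO. Leaving out WT library 1 gave a list median of 0.19, and leaving out WT library 2 gave 1.26.

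Of 17 genes of the Myc network (partners, antagonists and cofactors), 14 were tested, 9 negative and 5 positive, with a median of -0.32. The median was 0.20 at the same sum, 0.18 with a minimum mean of 5 RPKM and 0.06 without WT library 1. At an unadjusted p under 0.05, Zbtb17 (MIZ-1), a partner in repression by Myc, was lower, 1 of the 14 beside 7.32% of all tested genes, with 6.42 and 8.21 RPKM in the WT libraries and 1.71 and 3.19 RPKM in those labelled KO (log2 fold change -1.30, SE 0.41, adjusted p = 0.660). Ruvbl1 (0.63, or -0.09 without WT library 1), Mga (0.54, or 0.06 without WT library 2) and Skp2 (-0.84, or -0.50 without KO library 2) were the others named.

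Of 29 Myc target genes all were tested, 28 positive and 1 negative, with a median of 0.50, beside 46.9% of all tested protein-coding genes that were negative. In 18 of the 29 both libraries labelled KO lay above both WT libraries, beside 20.1% of all tested genes. At an unadjusted p under 0.05, 3 were higher and none lower, beside 7.32% of all tested genes in either direction. Dkc1, a pseudouridine synthase, had 1.21 and 3.09 RPKM in the WT libraries and 7.22 and 10.5 RPKM in those labelled KO (log2 fold change 1.70, SE 0.46, adjusted p = 0.629). Shmt2, a mitochondrial one-carbon enzyme, had 9.60 and 11.6 RPKM against 36.9 and 21.1 RPKM (1.32, SE 0.44, adjusted p = 0.665), and the cap-binding factor Eif4e had 4.69 and 8.13 RPKM against 16.0 and 15.9 RPKM (1.23, SE 0.41, adjusted p = 0.665). Odc1, the ornithine decarboxylase of polyamine synthesis, had 27.3 and 57.3 RPKM against 37.6 and 57.1 RPKM (0.22, or -0.30 without WT library 1), and Bop1 was lowest at -0.002. Leaving out WT library 1 gave a list median of 0.33, leaving out WT library 2 gave 0.96, and the median was positive under all 16 alternatives. Both KO values of Myc itself were inside its WT range, and the part of Myc in the values of these targets was not tested.

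**Figure D5:**
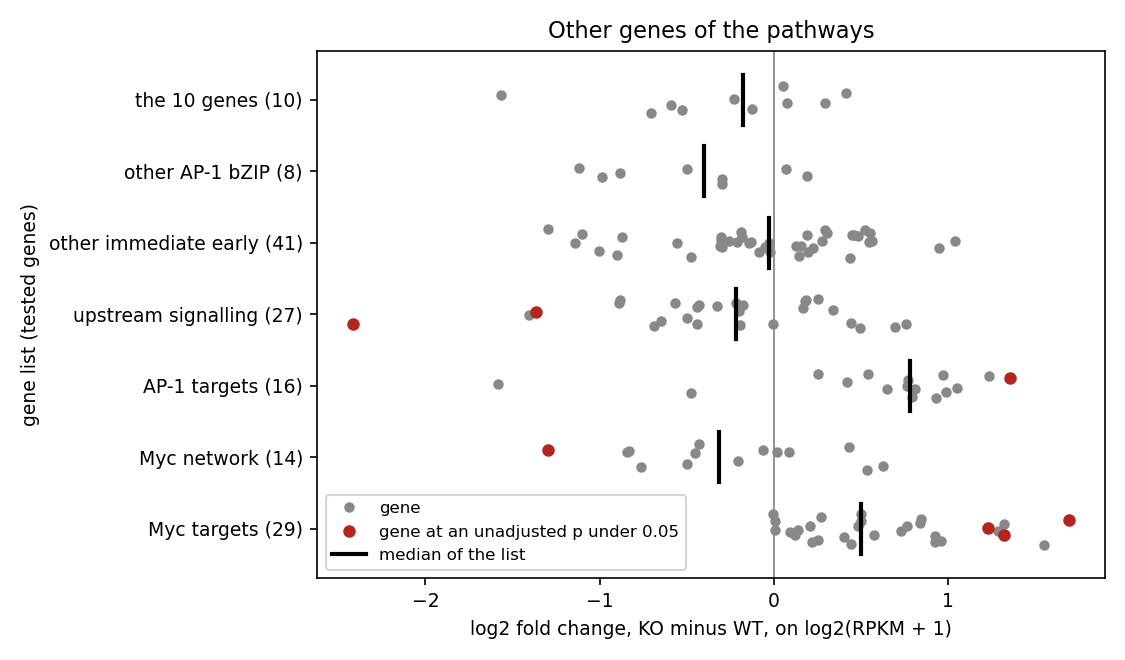
Log2 fold change (KO minus WT on log2(RPKM + 1)) of each tested gene in the 10-gene group and 6 lists of related genes, with vertical scatter for visibility only. Black bars are medians, and red points are genes at an unadjusted p under 0.05. Most AP-1 and Myc target genes lie to the right of 0.

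Markers of cell types differed between the libraries, though none passed between the groups at an adjusted p under 0.05. All 8 myoblast markers were negative (median -1.43), 5 of them at an unadjusted p under 0.05 (7.32% of all tested genes). Their summed levels were 339 and 199.6 RPKM in the WT libraries and 98.4 and 120 RPKM in those labelled KO. Within these sums, Myog had 91.0 RPKM in WT library 1 and 4.26 in WT library 2, against 0.737 and 1.66 in those labelled KO. Myod1, the defining myogenic factor, had 139.9 and 117.5 RPKM against 48.6 and 79.8 RPKM, a log2 fold change of -1.03 (SE 0.48, adjusted p = 0.676), -0.68 without KO library 1 and -0.51 with the GC trend removed, and Myf5 was listed at 0 in KO library 2. Fibroblast markers were positive in 7 of 9, with sums of 483 and 284 RPKM against 837 and 366 RPKM. Their median was 0.51, and with a library left out it ranged from 0.04 (without KO library 1) to 0.96 (without KO library 2). Endothelial markers were positive in all 7 tested of 8, with sums of 192 and 275 RPKM against 299 and 362 RPKM. Immune markers were tested in 4 of 9, 3 negative and 1 positive, with sums of 30.9 and 54.4 RPKM against 36.2 and 27.8 RPKM. At an unadjusted p under 0.05 (7.32% of all tested genes), Lyz2 was lower (-1.16) and Adgre1 higher (1.33), with 28 reads each. Csf1r, not tested, had 0.287 and 0 RPKM against 1.15 and 1.29 RPKM, and C1qa and Itgam were at 0 in every library. Smooth muscle and pericyte markers had sums of 156 and 122 RPKM against 99.3 and 108 RPKM. The part of cell makeup in the values of the 10 genes and their targets was not tested.

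Among 1150 protein-coding genes averaging 20 RPKM or more, the 5 most like the mean profile of the 10 genes over the 4 libraries were Ndufs7, Dcakd, Sgta, Pabpc1 and Gnai2. Their root mean square differences from it were 0.022, 0.054, 0.067, 0.081 and 0.090 on the log2 scale. The profile stood at 0.24 in WT library 1, 0.05 in WT library 2, -0.27 in KO library 1 and -0.02 in KO library 2, relative to its own mean. Its value in KO library 1 rested mainly on Jund (15 reads there) and Fosl1 (14 reads there). Fos, Fosb and Junb had their highest values in that library.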

How the data were processed

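Ribosome-protected fragments were sequenced from 4 primary myoblast libraries. Sample titles say Polysome-Seq, whereas the extraction text describes ribosome profiling. The authors removed low-quality, rRNA and tRNA reads, mapped with TopHat2 to mm10 with an Ensembl annotation and counted with HTSeq (tool versions and strand mode are not given in the sources used here). The deposited values are RPKM, scaled by the authors to a library size (471136 to 906990) that was not the read total (642429 to 704006). RPKM times length gave whole reads for 100% of values above 0 (tolerance 0.01 reads). Intervals cover counting error only.

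Groups came from sample titles. limma 3.58.1 (R 4.3.3; lmFit, eBayes with trend) was fitted on log2(RPKM + 1) to the 11363 genes averaging 1 RPKM or more, two-sided, with Benjamini-Hochberg adjustment over all of them; fold changes on this scale understate low genes. The steps were tested on simulated data. Sequence features came from the longest coding sequence of each gene in GENCODE M21 (GRCm38), which held 99.8% of the identifiers. No columns of other samples were used.

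The alternatives tried were a smaller pseudocount (0.1), no filter beyond a value above 0, a stricter filter (mean of 5 RPKM, or 20 reads), eBayes without trend, libraries scaled to the same sum (of all or of protein-coding genes), quantile normalization, protein-coding genes only, removal of a loess trend on coding GC content (span 0.5), limma-voom on recovered reads, a replicate block, and each library left out. The named genes were the 10 genes, Eif5a, Myod1 and Odc1, and from each list every gene at an unadjusted p under 0.05, filled up to 4 with the highest and lowest log2 fold changes among genes with at least 20 reads. An item that the rule would name is not reported here. Marker genes and the overlapping genes were described besides. Likeness was the root mean square difference of centred log2(RPKM + 1) over the 4 libraries. The genes and lists were chosen with earlier results of these data known.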

Additional observations from a re-analysis of the deposited data

How the results depend on the processing

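The test was repeated under 16 alternatives, and none of the 10 genes and none of the other pathway genes was called under any of them. With the replicate block, 0 of the 10 genes were called and their median log2 fold change was -0.18, as without it. The labels do not say whether same-numbered libraries share more than a number, and the correlation of their deviations was 0.057. The block moved the calls over all genes from 12 to 0. Counts over all genes moved likewise, to 0 under 12 other alternatives and to 39 with limma-voom. The smallest adjusted p of the 10 genes ranged from 0.301 (limma-voom) to 0.925 (without KO library 1). A single gene of the 10 had an unadjusted p under 0.05 with at least 20 reads, with protein-coding genes only and with limma-voom, and 2 did without KO library 2. Leaving out a library leaves its group with 1, which is then assumed to vary like the other group. The median log2 fold change of the 10 genes was 0.436 at the same sum, 0.137 with quantile normalization and 0.254 with the GC trend removed, and ranged from -0.369 to 0.0026 when a library was left out.

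Of 583 combinations of 37 named genes and alternatives, 552 kept direction and side of the threshold and 31 changed sign. At the same sum these were Fosl2 (0.062), Jun (0.386), Egr1 (0.020), Ier2 (0.485) and Bop1 (0.572). With quantile normalization they were Jun (0.134), Ier2 (0.270) and Bop1 (0.035). With the GC trend removed they were Jun (0.228), Ier2 (0.376), Bop1 (0.249) and Atf2 (-0.019). At the same sum over protein-coding genes they were Junb (-0.037), Myc (-0.061) and Maff (-0.037). Bop1 was 0.0055 with a pseudocount of 0.1 and 0.023 with limma-voom. The ranges of the log2 fold change when a library was left out were Fosl1 -1.41 to 0.00514, Ier2 -0.387 to 0.135, Myc -0.282 to 0.386, Maff -0.439 to 0.582, Mmp9 -0.269 to 2.38, Ruvbl1 -0.0892 to 1.35, Odc1 -0.302 to 0.743, Bop1 -0.559 to 0.555 and Eif5a -0.122 to 0.761. The cause was not tested. Among the 10 genes, depth limits Fosl1 and Jund most, with 14 to 36 and 15 to 81 reads per library.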
